A study of Oryza sativa with 36 samples.

Results

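Roots of rice seedlings were compared 24 h after the application of 5 µM zaxinone with roots that received the mock solution, 3 libraries against 3. These 6 libraries were chosen by tissue and time and belong to a series of 36, in which roots and shoots were collected at 2, 6 and 24 h. All plants were wild type in the Nipponbare background, were 3 weeks old and were grown hydroponically in a modified Hoagland solution, and every sample title carries the mark +P, which the labels do not explain. The first group was treated with zaxinone for 24 h, and the second received the mock treatment without the compound for the same time. The labels do not say whether replicates came from separate plants or pools of plants, so the p-values below measure the spread between these libraries. RNA-Seq of a whole root cannot separate a change in the number of cells of a type from a change in the RNA of each cell.

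Zaxinone is an apocarotenoid, a product of the oxidative cleavage of carotenoids, and apocarotenoids serve plants as hormones and signals. Strigolactones and abscisic acid are other members of this class of compounds. Cytokinins are adenine-derived hormones that regulate cell division. For roots, the study cites work in which they limit elongation and make the meristem smaller. Glucosyltransferases attach glucose to cytokinins and to many phenolic compounds, which stores or inactivates them, and cytokinin oxidases degrade the free hormone. Type-A response regulators are genes that cytokinin switches on early and that dampen its signal.

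Transcripts were listed under locus numbers of the rice genome annotation (O. sativa v7.0), in which the digits before the letter g give the chromosome. Loci are therefore given by number, and a role is stated only where the study lists one. The study has qRT-PCR primers for the 3 loci with the largest increase below, and these pairs are shown because they define the stretch by which each of the 3 transcripts can be measured again. They are written 5′ to 3′, with the last bases at the 3′ end, from which the polymerase extends, in capitals.
Os01g42370 forward: ctccgctttcactcACTTT
Os01g42370 reverse: caaccggtcctcaacTATTC
Os07g23570 forward: gccctgtctcactcaTACGG
Os07g23570 reverse: caatagtgcaccctcAGGCA
Os01g45110 forward: gagccatagggagaGTGAT
Os01g45110 reverse: cgtccatcagaattcCAACA

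The depth differed between the libraries. In zaxinone-treated roots, 26922055, 11261992 and 24999270 reads were counted in replicates 1, 2 and 3, against 30830010, 20694839 and 24421819 in mock-treated roots. Zaxinone replicate 2 had the fewest reads and stood apart from all the others. Across 26368 transcripts, its log2(CPM + 1) values had a Pearson r of 0.90 to 0.92 with the other 5 libraries, whereas r ran from 0.983 to 0.994 within these 5. CPM is the count scaled to the size of its library, with TMM factors. Transcripts are not independent replicates, so r describes the libraries only. With the 12 root libraries of 2 and 6 h, replicate 2 correlated with r between 0.846 and 0.892, and with the 18 shoot libraries with r between 0.670 and 0.713, so no other time or tissue of the series was nearer to it than roots at 24 h. Counts of any pair of replicates differed by more than sampling noise, with a chi-square of at least 11.4 per degree of freedom.

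**Figure D1:**
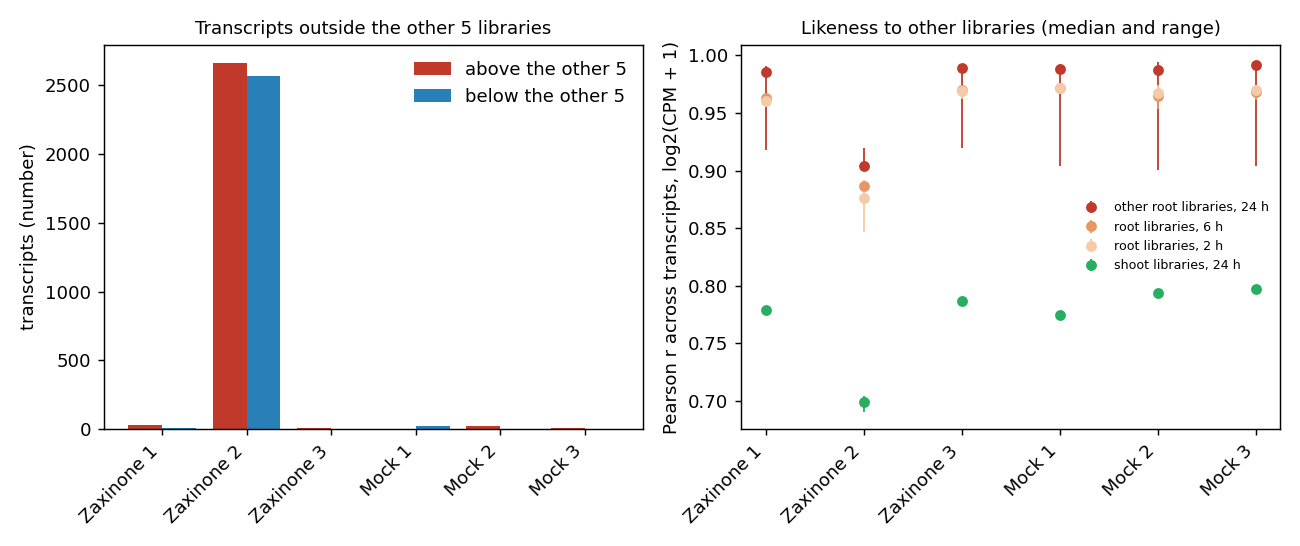
Left, bars give the number of transcripts of each root library at 24 h that lay more than 1 above the highest or below the lowest of the other 5 on the log2(CPM + 1) scale. Right, points give the median Pearson r of each library with other libraries and lines the range. Zaxinone replicate 2 has 2661 transcripts above and 2564 below, and the lowest r in every set.

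The tissue labels were checked with transcripts that separate shoot from root in the mock libraries. The 26 shoot-enriched transcripts (at least 100 CPM in every mock shoot library, under 1 CPM in every mock root library of 2 and 6 h) summed to 5.19, 4.83 and 5.65 CPM in zaxinone-treated roots, against 3.84, 3.53 and 15.7 CPM in mock-treated roots. The sums in mock shoots were 8125 CPM or more. The 21 root-enriched transcripts summed to 8855, 9579 and 8843 CPM in zaxinone-treated roots, against 8758, 10706 and 9567 CPM in mock-treated roots, and none of them was at 0 in any of the 6 libraries. Zaxinone replicate 2 thus carried the root transcripts at the level of the others, and 15 of the 26 shoot-enriched transcripts were at 0 in it. The highest shoot-enriched sum was in mock replicate 3.

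Which genes changed 24 h after zaxinone was asked with and without replicate 2. Over all 6 libraries, edgeR's quasi-likelihood test called 1 of 23616 transcripts at an adjusted p under 0.05, which is 0.00423% of those tested, and this transcript, Os01g42370, was higher after zaxinone. At an unadjusted p under 0.05 there were 1997 transcripts. Without replicate 2, 146 transcripts were higher and 58 were lower among 23862 tested, or 0.612% and 0.243%. The biological coefficient of variation, which is the typical relative spread between replicates, was 0.339 with replicate 2 and 0.163 without it.

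The count without replicate 2 itself rested on single libraries. It was 47 without zaxinone replicate 1 and 385 without zaxinone replicate 3, where the lone zaxinone library left was assumed to vary like the mock libraries. It was 308 without mock replicate 1, 10 without mock replicate 2 and 5 without mock replicate 3. Over all 6 libraries, DESeq2 called 421 transcripts (350 higher and 71 lower), limma with library weights 760 and the fit of all 18 root libraries 505, while leaving out mock replicate 1, 2 or 3 or zaxinone replicate 1 left 0. Without zaxinone replicate 3 in place of replicate 2, 45 transcripts were called.

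The 146 transcripts that rose were changed by a median log2 fold change of 1.26, beside a median of 0.01 over all transcripts tested, and 27 of them by more than 2 on the log2 scale. Their mean level had a median of 19.0 CPM, and 12 of them were under 1 CPM in mock-treated roots. The 58 that fell had a median of -1.19, and 14 fell by more than 2. All 204 had no overlap between the 2 zaxinone libraries and the 3 mock libraries. Such separation was common, since it held for 14.3% of all tested transcripts with zaxinone above and 15.1% with zaxinone below. Some of the loci are neighbours by number: 9 of the risers formed 5 neighbouring pairs, among them Os01g42370 with Os01g42380 and the run Os07g04930, Os07g04940 and Os07g04950, and 4 of the fallers formed the pairs Os08g43850 with Os08g43860 and Os12g41970 with Os12g41980. Whether reads could be shared between such neighbours was not tested.

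Os01g42370 had the largest increase of the called transcripts. It was at 52.4, 23.5 and 69.7 CPM in zaxinone-treated roots, against 0.451, 0.723 and 0.407 CPM in mock-treated roots. The groups were far apart, with the lowest value after zaxinone in replicate 2. The log2 fold change was 6.54 ± 0.51 (SE; edgeR adjusted p = 0.0477) over 6 libraries and 6.89 ± 0.24 (adjusted p = 4.71e-05) without replicate 2. Over 6 libraries, 7 of 13 alternatives kept the call, and the adjusted p was highest without mock replicate 1 (0.796), while all 11 alternatives without replicate 2 kept it. The fold change ranged from 6.20 to 7.00 and from 6.66 to 7.14 over these alternatives. In roots, this transcript was also higher at 2 h (log2 fold change 7.31) and at 6 h (6.11), and the tests of these effects against that at 24 h did not pass (adjusted p = 0.646 for 2 h and 0.727 for 6 h). In shoots at 24 h its log2 fold change was -0.44 (adjusted p = 1).

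Os07g23570 had the next largest increase. It had 12.8, 7.35 and 26.7 CPM after zaxinone, against 0.290, 0.530 and 0 CPM in mock. Replicate 2 was again the lowest of the zaxinone libraries, well above every mock library. The log2 fold change was 6.21 ± 0.61 (edgeR adjusted p = 0.0117) without replicate 2 and 5.86 ± 0.91 (adjusted p = 0.317) with it. Without replicate 2, the call was kept in 9 of 10 alternatives and lost without mock replicate 2 (adjusted p = 0.0512). The same locus was higher at 2 h (5.07) and 6 h (4.90).

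Os01g45110, a glucosyltransferase listed with scopoletin and other phenolics as substrates, reached 5.24, 4.21 and 15.4 CPM after zaxinone, against 0.483, 1.16 and 0.244 CPM in mock. The increase was largest in replicate 3. Its log2 fold change was 4.10 ± 0.60 (edgeR adjusted p = 0.0257) without replicate 2 and 3.76 ± 0.72 (adjusted p = 0.353) with it. Without replicate 2, the call was kept in 7 of 10 alternatives, and leaving out mock replicate 2 or 3 lost it. At 2 h the log2 fold change was 0.12 (edgeR adjusted p = 0.991), and at 6 h it was 1.31 (adjusted p = 0.0221).

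Os01g42380, the neighbour of the leading locus, stood at 31.3, 29.9 and 16.0 CPM after zaxinone, against 2.74, 3.52 and 2.85 CPM in mock. Here every zaxinone library was far above mock. The log2 fold change without replicate 2 was 2.98 ± 0.29 (edgeR adjusted p = 0.0117). Os01g27210 behaved alike, with 14.8, 14.2 and 23.5 CPM after zaxinone and 1.74, 2.51 and 3.09 CPM in mock (2.99 ± 0.28, adjusted p = 0.0111). Os01g58860 had 77.7, 69.1 and 26.5 CPM against 7.38, 5.21 and 7.97 CPM in mock, with replicate 3 the lowest of the treated libraries (2.93 ± 0.40, adjusted p = 0.0208). For these 3 loci replicate 2 lay between or close to the other treated libraries. Over 6 libraries the log2 fold change was 3.11 for Os01g42380, 2.86 for Os01g27210 and 3.10 for Os01g58860, each with an adjusted p of 0.241.

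Other strong risers had replicate 2 far out. Os03g22170 had 111, 299 and 32.1 CPM after zaxinone, against 12.6, 8.25 and 10.4 CPM in mock, so that the treated libraries spread over a wide range (log2 fold change 2.79 ± 0.44, edgeR adjusted p = 0.0384 without replicate 2). Os01g24030 had 5.12, 21.9 and 2.14 CPM after zaxinone, against 0.387, 0.193 and 0.447 CPM in mock (3.37 ± 0.48, adjusted p = 0.0229). In both, replicate 2 was the highest library. Os03g24430, a glucosyltransferase listed with brassinosteroids and quercetin, had 2.00, 6.63 and 2.78 CPM, against 0.290, 0.338 and 0.447 CPM in mock (2.74 ± 0.36, adjusted p = 0.0183). Os10g31560 had 10.3, 4.39 and 9.45 CPM, against 2.29, 0.772 and 1.06 CPM in mock, with replicate 2 the lowest of the treated libraries (2.81 ± 0.37, adjusted p = 0.0192).

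**Figure D2:**
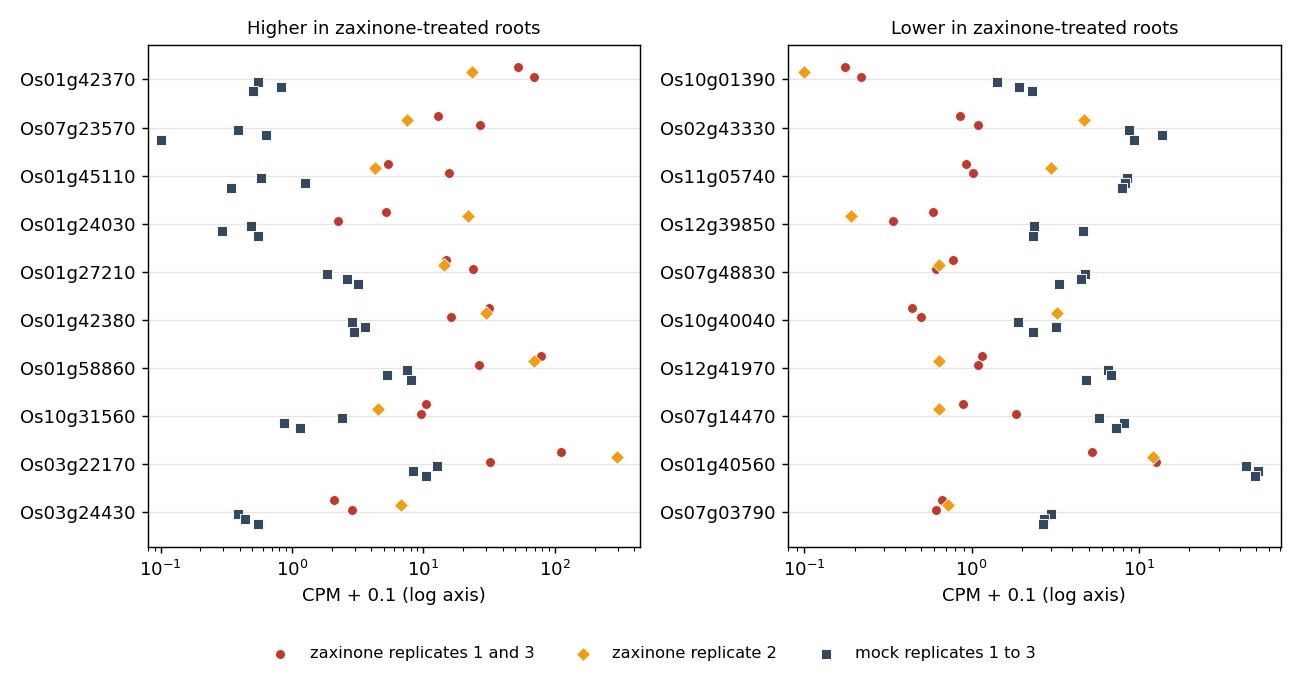
Each row is a transcript and each point a library on a log axis of CPM + 0.1; red circles are zaxinone replicates 1 and 3, orange diamonds zaxinone replicate 2 and dark squares the 3 mock replicates. The 10 largest increases and the 10 largest decreases without replicate 2, of transcripts with at least 1 CPM on average, are drawn, and for Os10g40040 replicate 2 lies at 3.14 CPM, just above the highest mock value of 3.09 CPM.

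The largest fitted decrease was that of Os07g26720, with 0, 2 and 0 reads after zaxinone, against 38, 38 and 29 reads in mock, and since zaxinone replicates 1 and 3 were at 0 its fitted value is no measure of size. Among the 10 largest decreases of transcripts with at least 1 CPM on average, Os11g05740 had the smallest standard error. It had 0.829, 2.87 and 0.913 CPM after zaxinone, against 8.38, 8.15 and 7.80 CPM in mock. The log2 fold change was -3.20 ± 0.22 (edgeR adjusted p = 0.00561) without replicate 2 and -2.44 ± 0.52 (adjusted p = 0.374) with it, and all 11 alternatives without replicate 2 kept the call. Os02g43330 was at 0.753, 4.57 and 0.993 CPM after zaxinone, against 8.67, 13.6 and 9.23 CPM in mock (-3.57 ± 0.31, adjusted p = 0.00908 without replicate 2). In both, replicate 2 was the treated library nearest to mock.

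Among these 10, the fewest reads were those of Os10g01390, which had 0.0753, 0 and 0.119 CPM after zaxinone, that is 2, 0 and 3 reads, against 1.32, 1.83 and 2.20 CPM in mock. Its fitted log2 fold change of -4.12 ± 0.52 (edgeR adjusted p = 0.0182) rests on these few reads. Os12g39850 had 0.490, 0.0896 and 0.238 CPM, against 2.26, 4.53 and 2.24 CPM in mock (-3.00 ± 0.51, adjusted p = 0.0457). Both were lower in every zaxinone library than in any mock library.

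Os07g48830 had 0.678, 0.538 and 0.516 CPM after zaxinone, against 4.64, 4.39 and 3.25 CPM in mock (-2.75 ± 0.31, edgeR adjusted p = 0.0142). Os12g41970 had 1.05, 0.538 and 0.993 CPM, against 6.41, 6.70 and 4.72 CPM in mock (-2.52 ± 0.27, adjusted p = 0.0131). Os07g03790 had 0.565, 0.627 and 0.516 CPM, against 2.90, 2.60 and 2.56 CPM in mock (-2.29 ± 0.30, adjusted p = 0.0183). In these 3 every treated library, replicate 2 included, was far below mock. Os10g40040 differed in this: replicate 2 was at 3.14 CPM, beside 0.339 and 0.397 CPM in the other treated libraries and 1.80, 3.09 and 2.24 CPM in mock, so that its log2 fold change was -2.65 ± 0.40 (adjusted p = 0.0292) without replicate 2 and -0.95 ± 0.85 (adjusted p = 0.66) with it. The call of Os10g40040 without replicate 2 was kept in 5 of 10 alternatives. Os01g40560 had more reads than the others of these 10, with 5.12, 12.0 and 12.5 CPM after zaxinone, against 43.5, 51.3 and 49.1 CPM in mock (-2.43 ± 0.33, adjusted p = 0.0196 without replicate 2).

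The study lists 13 loci of cytokinin glucosyltransferases, the enzymes that conjugate glucose to cytokinins. The list was selected among the genes that changed in these 6 libraries. The direction of its members is thus no independent evidence, and the counts are a description. The study also checked some of its members by qRT-PCR on its RNA-Seq samples and reports them as highly induced at 24 h. The listed substrates are mostly other compounds: zeatins, which are cytokinins, are listed for Os02g42280, and flavonoids, phenolics, crocetin or benzoxazinoids for most others. All 13 were above every mock library in all zaxinone libraries, as were 9.95% of all tested transcripts, and nothing is read from this count because the list was selected on these libraries. The filter on low counts, which leaves out a transcript with too few reads to test, was passed by 12. Without replicate 2, 5 of these 12 rose and 7 did not pass the test, beside 0.612% that rose over all transcripts. Their median log2 fold change was 1.79, beside 0.01 over all transcripts. With replicate 2, none passed edgeR's test (adjusted p from 0.241 to 0.509), 12 had an unadjusted p under 0.05, and the median was 2.27 beside -0.00. DESeq2, the tool the study used, called each of the 12 tested loci over the same 6 libraries. The list was selected on that tool's calls, so this is no independent evidence either.

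Os11g04860, listed with an anthocyanin as its substrate, had the smallest standard error of the 5 that rose. It had 7.80, 4.48 and 6.47 CPM after zaxinone, against 1.26, 1.06 and 1.06 CPM in mock (log2 fold change 2.67 ± 0.22, edgeR adjusted p = 0.00908 without replicate 2). Os02g11640, listed with dinitrotoluene derivatives, had 3.58, 18.01 and 4.57 CPM, against 0.902, 1.21 and 1.10 CPM in mock (1.95 ± 0.26, adjusted p = 0.0201). Os05g12450, listed with hydroquinone, had 6.03, 7.08 and 9.05 CPM, against 3.03, 2.12 and 2.68 CPM in mock (1.53 ± 0.25, adjusted p = 0.042). These loci, with Os01g45110 and Os03g24430, are the 5 that rose, and in each of them the groups did not overlap.

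The zeatin glucosyltransferase Os02g42280 had 3.13, 4.48 and 0.913 CPM after zaxinone, against 0.644, 0.820 and 0.366 CPM in mock, and its log2 fold change of 1.75 ± 0.56 did not pass (edgeR adjusted p = 0.238 without replicate 2). Replicate 3 was close to the mock libraries. Os07g31960, listed with 3-deoxyanthocyanidins, had 6.74, 37.2 and 7.47 CPM, against 3.16, 3.23 and 4.23 CPM in mock (1.02 ± 0.21, adjusted p = 0.0801 without replicate 2). Here the replicate that stands apart was the highest by far, and the log2 fold change with it was 2.31 ± 0.70 (adjusted p = 0.509). The neighbours Os05g45090 and Os05g45100 are listed with the same substrates. Os05g45090 had 2.03, 4.21 and 2.50 CPM, against 0.870, 0.916 and 0.447 CPM in mock. Os05g45100 had 1.24, 2.60 and 0.397 CPM, against 0, 0.241 and 0 CPM in mock, and did not pass the filter.

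**Figure D3:**
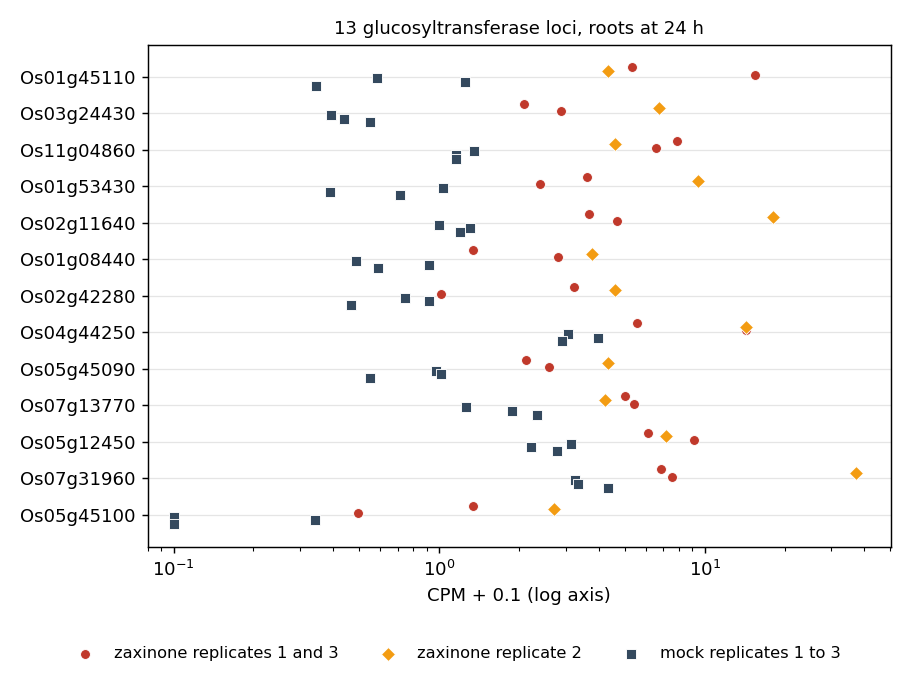
Each row is one of the 13 listed glucosyltransferase loci, ordered by log2 fold change without replicate 2, and each point a library on a log axis of CPM + 0.1 (red circles, zaxinone replicates 1 and 3; orange diamonds, zaxinone replicate 2; dark squares, mock). The orange diamond is the rightmost point for Os07g31960 at 37.2 CPM and Os02g11640 at 18.01 CPM. It is also rightmost for Os03g24430, Os01g53430, Os05g45090, Os02g42280, Os05g45100 and Os01g08440. For Os11g04860 it lies between mock and the red circles, at 4.48 CPM. Os05g45100, at the bottom, was not tested.

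The choice of the list did not rest on the earlier times. At 2 h, the median log2 fold change of the glucosyltransferase loci in roots was 0.34 over 10 tested loci, of which 1 rose. At 6 h it was 0.70 over 12, of which 3 rose. Over all transcripts tested, 128 of 23573 rose at 2 h and 191 of 23884 at 6 h, with medians of -0.01 and -0.00. In the test of the effect at 24 h against that at 2 h, none of 12 tested loci passed over 18 libraries. Without replicate 2, 2 of 12 passed, Os01g45110 and Os11g04860, both larger at 24 h, beside 0.206% of all tested transcripts. None passed against 6 h. Selection at 24 h favours larger values at that time, so nothing is read from this for the list. Os03g24430 rose at both earlier times, by 4.31 at 2 h and 2.83 at 6 h on the log2 scale.

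Cytokinin response genes gave smaller changes. OsRR10 (Os02g35180), a type-A response regulator, had 48.2, 71.2 and 54.1 CPM after zaxinone, against 23.4, 30.6 and 38.98 CPM in mock (log2 fold change 0.73 ± 0.20, edgeR adjusted p = 0.159 without replicate 2, and 0.93 ± 0.27, adjusted p = 0.483 with it). OsRR6 (Os04g57720), of the same class, had 5.05, 12.2 and 5.80 CPM, against 3.58, 3.81 and 3.98 CPM in mock (0.53 ± 0.19, adjusted p = 0.309 without replicate 2). Both had separated groups, as did 14.3% of all tested transcripts with zaxinone above without replicate 2, and neither passed the test. OsCKX4 (Os01g71310), a cytokinin oxidase, had 24.8, 23.7 and 22.1 CPM after zaxinone, against 9.89, 11.2 and 13.1 CPM in mock. It rose by 1.05 ± 0.15 (edgeR adjusted p = 0.0276) without replicate 2. Its value with that library was nearly the same at 1.07 ± 0.22 (edgeR adjusted p = 0.374), and there DESeq2 called it.

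The 3 loci of the cytokinin biosynthesis mutants that the study used, Os03g49050, Os05g51390 and Os10g33900, were all near the lower limit of detection. They lay between 0.357 and 1.51 CPM in zaxinone-treated roots and between 0.516 and 1.46 CPM in mock-treated roots, over the 3 loci together. Os06g08440, the locus of the cytokinin regulatory mutant in the study, had 17.9, 12.098 and 18.9 CPM after zaxinone, against 19.3, 27.6 and 26.3 CPM in mock, and its log2 fold change of -0.39 ± 0.17 did not pass (edgeR adjusted p = 0.416 without replicate 2). Of these 7 cytokinin loci, 1 rose and 6 did not pass the test without replicate 2. Without it, 4 of the 7 had both zaxinone libraries above every mock library, beside 14.3% of all tested transcripts. They were OsRR10, OsRR6, OsCKX4 and a locus of the biosynthesis mutants. For 1, Os06g08440, both were below every mock library, beside 15.1% of all. Over all transcripts tested, 0.612% rose. The median log2 fold change of the 7 was 0.29, beside 0.01 over all transcripts.

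The study also lists 24 loci of sugar metabolism, which it selected at 6 h, on libraries other than those of 24 h. None passed edgeR's test at 24 h with replicate 2, where 3 had an unadjusted p under 0.05, or without it, where 5 had. Their median log2 fold change was 0.12 without replicate 2, beside 0.01 over all transcripts, and 0.29 with it, beside -0.00. At 6 h the same loci had a median of 0.44, and all 24 an unadjusted p under 0.05, as the selection implies. By edgeR's adjusted test, 2 of the 24 rose at 6 h and 3 at 2 h. Over all transcripts, 191 of 23884 rose at 6 h and 128 of 23573 at 2 h. Without replicate 2, 5 of the 24 had both zaxinone libraries above every mock library, beside 14.3% of all tested transcripts.

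Os08g02700, listed with the fructose-bisphosphate aldolase reaction of glycolysis, had the largest difference in this list. It had 7.19, 20.5 and 32.3 CPM after zaxinone, against 2.80, 3.28 and 5.94 CPM in mock (log2 fold change 2.32 ± 0.57, edgeR adjusted p = 0.13 without replicate 2). The treated libraries spread over a wide range. Os01g06660, of a 2-oxo acid decarboxylase, had 46.3, 41.4 and 28.4 CPM, against 20.1, 22.0 and 18.1 CPM in mock (0.91 ± 0.20, adjusted p = 0.104). Os10g26570, of an ATP-dependent phosphofructokinase, had 52.8, 20.5 and 75.4 CPM, against 47.3, 38.6 and 33.4 CPM in mock. In this locus replicate 2 was below all mock libraries, and the log2 fold change was 0.70 ± 0.19 (adjusted p = 0.162) without it and 0.33 ± 0.42 (adjusted p = 0.725) with it. Over 6 libraries, DESeq2 called Os08g02700 and Os01g06660 but not Os10g26570. For glyceraldehyde 3-phosphate dehydrogenase, the abundant Os04g40950 had 1287, 1119 and 1252 CPM after zaxinone, against 1425, 1046 and 1232 CPM in mock, which overlap.

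The 15 loci of the study's qRT-PCR checks were chosen from its RNA-Seq results, so their direction in these counts is no independent evidence either. The study also measured them by qRT-PCR and reports that both measures correlated. At 24 h its qRT-PCR change had the same sign as its RNA-Seq change for all 15. These qRT-PCR values were not analysed here. In the counts without replicate 2, 4 rose, 5 fell and 6 did not pass, beside 0.612% that rose and 0.243% that fell over all transcripts. Os07g44110 rose to 152, 175 and 351 CPM after zaxinone, against 50.1, 56.6 and 57.6 CPM in mock (2.21 ± 0.29, edgeR adjusted p = 0.0188). Os06g11130 had 59.1, 163 and 79.1 CPM, against 26.3, 35.97 and 35.8 CPM in mock (1.09 ± 0.18, adjusted p = 0.0412), with replicate 2 the highest. Neither group of libraries overlapped the other at these loci.

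Os02g35490 fell to 47.4, 50.4 and 58.1 CPM, against 115, 125 and 108 CPM in mock (-1.13 ± 0.13, edgeR adjusted p = 0.0142 without replicate 2). Os10g10540 had 2.03, 1.43 and 3.02 CPM after zaxinone, against 10.2, 14.2 and 10.3 CPM in mock (-2.18 ± 0.26, adjusted p = 0.0163). Os07g14470 had 0.791, 0.538 and 1.75 CPM, against 5.70, 8.10 and 7.24 CPM in mock (-2.45 ± 0.35, adjusted p = 0.0231). In these 3 every treated library, replicate 2 included, was below every mock library. Over 6 libraries the log2 fold change was -1.14 for Os02g35490, -2.38 for Os10g10540 and -2.71 for Os07g14470, with an adjusted p between 0.241 and 0.32. The other fallers were Os01g16170, with 11.5, 6.27 and 11.5 CPM against 24.1, 23.0 and 21.5 CPM in mock, and Os01g33869, with 14.5, 6.63 and 16.6 CPM against 35.9, 32.7 and 26.9 CPM in mock. In both of these replicate 2 was the lowest library.

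Roots at 2 and 6 h share no library with those at 24 h, and were tested alike. Of the 146 transcripts that rose at 24 h without replicate 2, 31 also rose at 2 h (21.2% of the 146 and 24.2% of the 128 that rose at 2 h) and 53 at 6 h (36.3% of the 146 and 27.7% of the 191 at 6 h). Of the 58 that fell, 3 also fell at 2 h (5.17% of the 58 and 13.6% of 22) and 16 at 6 h (27.6% of the 58 and 8.29% of 193). None was called in opposite directions. At all 3 times, 24 transcripts rose, among them Os01g42370, Os01g42380, Os07g23570, Os03g24430 and Os07g44110, and 2 fell, Os04g29580 and Os09g29560. In shoots at 24 h no transcript passed edgeR's test (901 had an unadjusted p under 0.05).

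Whether the effect of zaxinone at 24 h differed from that at the earlier times was tested in one fit of all 18 root libraries. The effect at 24 h was different from that at 2 h for 4 of 24935 transcripts (0.016%) and from that at 6 h for 2 (0.00802%), while 2414 and 2333 had an unadjusted p under 0.05. Without replicate 2, the numbers were 52 of 25277 (0.206%), with 18 larger and 34 smaller at 24 h, and 2 (0.00791%). The 52 became 146 where replicate 3 was left out in place of replicate 2.

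Os06g03930 had 104, 45.5 and 117 CPM after zaxinone at 24 h, against 29.96, 43.7 and 45.1 CPM in mock, where replicate 2 was close to mock. At 2 h it averaged 770 ± 177 CPM after zaxinone and 41.0 ± 6.49 CPM in mock (SD, n = 3 each), and at 6 h 128 ± 26.5 CPM after zaxinone and 39.6 ± 5.93 CPM in mock. The effect was smaller at 24 h than at 2 h by 3.04 ± 0.39 on the log2 scale (edgeR adjusted p = 0.0049). Os05g45410 had 2.45, 2.87 and 2.50 CPM after zaxinone at 24 h, against 1.80, 1.88 and 1.504 CPM in mock, and 30.2 ± 12.2 CPM after zaxinone and 2.01 ± 0.48 CPM in mock at 2 h (difference -3.28 ± 0.42, adjusted p = 0.0049). For Os07g33780 the groups overlapped at 24 h, with 20.9, 12.098 and 18.2 CPM after zaxinone and 18.1, 20.4 and 16.7 CPM in mock, while at 2 h it averaged 210 ± 2.5 CPM after zaxinone and 41.7 ± 7.4 CPM in mock (difference -2.40 ± 0.30, adjusted p = 0.0049). These 3 had their large increase at 2 h.

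Os12g41970 showed the reverse order in time. At 2 h it averaged 2.64 ± 0.62 CPM after zaxinone and 2.53 ± 0.94 CPM in mock, at 6 h 0.677 ± 0.029 CPM after zaxinone and 1.86 ± 0.25 CPM in mock, and at 24 h 0.862 ± 0.282 CPM after zaxinone and 5.94 ± 1.07 CPM in mock (difference of 24 h to 2 h -2.75 ± 0.43, edgeR adjusted p = 0.0388). Os07g03790 averaged 6.23 ± 1.31 CPM after zaxinone and 4.99 ± 0.88 CPM in mock at 6 h, and 0.570 ± 0.056 CPM after zaxinone and 2.69 ± 0.18 CPM in mock at 24 h (difference of 24 h to 6 h -2.55 ± 0.37, adjusted p = 0.0297). Os02g45160 had 21.9, 34.1 and 19.7 CPM after zaxinone at 24 h, against 7.96, 6.80 and 7.24 CPM in mock, and 37.5 ± 3.7 CPM after zaxinone and 40.3 ± 1.1 CPM in mock at 6 h (difference 1.91 ± 0.27, adjusted p = 0.0297). Over 18 libraries, these differences were called for 24 h against the named earlier time only. Without replicate 2, that of Os02g45160 was also called against 2 h (1.17 ± 0.17, edgeR adjusted p = 0.0143). Os12g41970 was already called lower at 6 h (log2 fold change -1.45). Mock levels moved between the times as well. For Os02g45160, mock averaged 40.3 CPM at 6 h and 7.33 CPM at 24 h, while zaxinone-treated roots averaged 37.5 and 25.2 CPM.

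**Figure D4:**
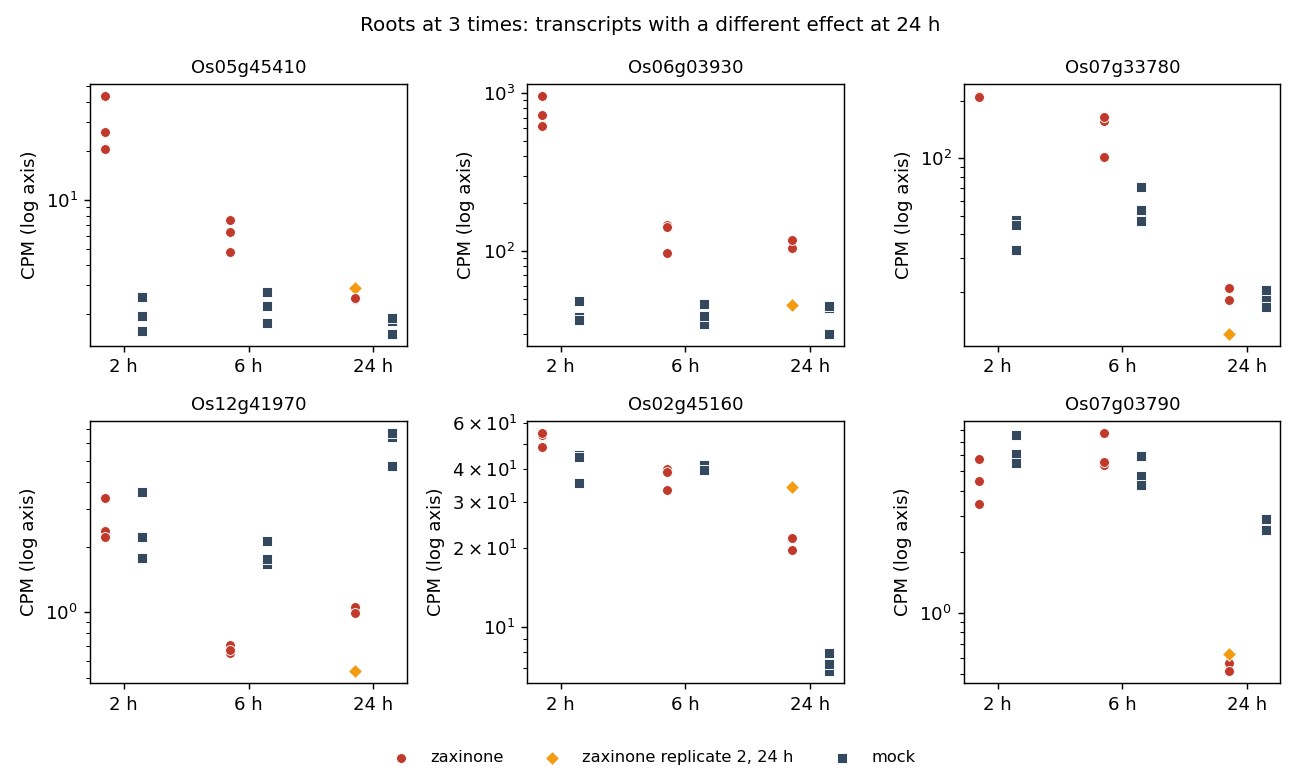
Each panel is a transcript whose zaxinone effect at 24 h differed from that at 2 or 6 h in one fit of 18 root libraries; points are libraries, by time, on a log axis of CPM, with zaxinone as red circles left of mock as dark squares and zaxinone replicate 2 of 24 h in orange. In Os06g03930 the treated libraries averaged 770 CPM at 2 h, 128 CPM at 6 h and 88.7 CPM at 24 h, and mock stayed between 39.6 and 41.0 CPM on average.

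Finally, the transcripts that set zaxinone replicate 2 apart were described, with no test, since it is a single library. Of 29628 listed transcripts, 2661 lay more than 1 above the highest of the other 5 libraries on the log2(CPM + 1) scale and 2564 lay more than 1 below the lowest. For the other libraries the counts were between 2 and 28 above and between 0 and 25 below. Many were well counted: 1995 of the 2661 and 2122 of the 2564 had at least 10 CPM in replicate 2 or on average in the others. By a gap of 2 on the same scale, 278 lay above and 135 below.

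The sets above and below were picked from these same counts, so the direction of their shares was fixed in advance and the intervals leave out that selection. The 2661 transcripts above took 17.04% of all reads in replicate 2 (95% Wilson interval 17.01 to 17.06%, for counting error only) and between 4.68% and 5.35% in the other libraries. The 2564 below took 5.23% (interval 5.22 to 5.24%) in replicate 2 and between 15.2% and 16.95% in the others. Their levels were moderate: the median transcript above had 24.1 CPM in replicate 2 and 6.33 CPM on average in the others, and the median one below had 10.1 CPM and 31.3 CPM. Most were outside the range of the whole series too. Of those listed in all tables, 2497 of 2582 above and 2488 of 2539 below were also outside all 17 other root libraries, and 2172 and 2128 outside all 35 other libraries.

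Both sets were spread over the genome. On the 12 chromosomes, between 6.25% and 10% of listed transcripts were in the set above and between 7.13% and 9.77% in the set below. Chromosome 11 had the smallest share above, 114 of 1824. The sets differed in the transcripts counted: 16.1% of those below were listed under a transcript number other than 1, beside 4.47% of those above and 7.45% of all. In roots of 2 and 6 h the set above had median levels of 5.26 and 6.22 CPM and the set below 32.4 and 27.7 CPM, close to the other 24 h libraries. The causes of the difference of replicate 2, its lower depth among them, were not tested.

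The transcripts farthest above were Os01g12100, Os06g09920, Os05g48650, Os03g29770, Os07g08390, Os11g29780, Os12g13674 and Os08g37630. Os01g12100 had 177 CPM in replicate 2, beside 19.2 and 19.9 CPM in the other treated libraries and 18.6, 20.5 and 16.7 CPM in mock. Os06g09920 had 75.5 CPM, beside 8.36 and 7.03 CPM in the other treated libraries and 8.44, 7.57 and 6.95 CPM in mock. Each was nearly constant over the other 5 libraries. Os07g08390 had 393 CPM in replicate 2, 48.6 and 36.7 CPM in the other treated libraries and 26.1, 26.1 and 27.2 CPM in mock. Os12g13674 had 228 CPM in replicate 2, 28.5 and 27.4 CPM in the other treated libraries and 23.8, 26.1 and 21.1 CPM in mock.

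The transcripts farthest below were Os03g22050, Os03g42464, Os05g41550, Os12g16260, Os01g56230, Os11g06934, Os06g29730 and Os12g04204. Os03g22050 had 1.08 CPM in replicate 2, 23.5 and 21.6 CPM in the other treated libraries and 34.3, 42.5 and 26.1 CPM in mock. Os12g16260 had 5.11 CPM in replicate 2, 73.9 and 61.7 CPM in the other treated libraries and 57.1, 63.7 and 54.4 CPM in mock. The other 5 libraries were closer together for Os12g16260 than for Os03g22050, where both other treated libraries were below every mock library. Os12g04204 had 5.65 CPM in replicate 2, 174 and 43.7 CPM in the other treated libraries and 118, 102 and 60.5 CPM in mock. Of these 8 loci, 4 were counted under a transcript number other than 1, beside 1 of the 8 above.

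**Figure D5:**
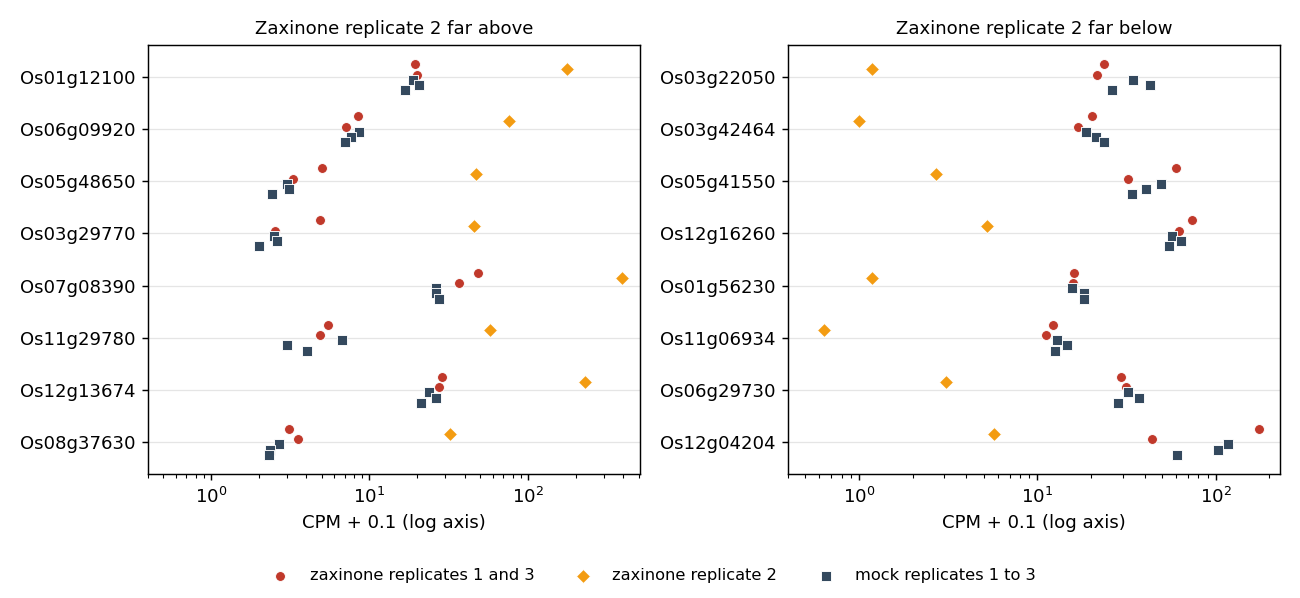
Each row is a transcript and each point a library on a log axis of CPM + 0.1, for the 8 transcripts by which zaxinone replicate 2 (orange diamonds) lies farthest above the nearest other library and the 8 by which it lies farthest below. For Os01g12100 the diamond is at 177 CPM and the other 5 libraries between 16.7 and 20.5 CPM.

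The transcripts with the largest shares of reads differed too. Os12g38300 had 2083 CPM in replicate 2, 9300 and 9224 CPM in the other treated libraries and 8523, 9046 and 8947 CPM in mock. Os02g41630 had 8254 CPM there, 4934 and 3953 CPM in the other treated libraries and 4226, 3728 and 3271 CPM in mock. Os03g01700 had 5141 CPM in replicate 2, 2177 and 2114 CPM in the other treated libraries and 2290, 2370 and 2201 CPM in mock. Os02g55890 was high in all treated libraries, with 3652, 5275 and 1267 CPM after zaxinone, against 730, 395 and 566 CPM in mock, and did not pass the test (log2 fold change 2.14 ± 0.41, edgeR adjusted p = 0.0654 without replicate 2, and 2.63 ± 0.52, adjusted p = 0.353 with it). Os02g38920 likewise had 9401, 7154 and 5631 CPM after zaxinone, against 4529, 3186 and 3837 CPM in mock (0.98 ± 0.24, adjusted p = 0.129 without replicate 2).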

How the data were processed

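Counts of the 6 root libraries of 24 h were analysed, with the 12 root libraries of 2 and 6 h and the shoot libraries for comparison. Per the study's methods, the authors used Trimmomatic for trimming, HISAT2 for alignment to the O. sativa v7.0 genome and HTSeq for counting reads per annotated gene, and the tables list the counts under transcript identifiers. The deposited values are raw counts without normalization, listed for 29628 transcripts in roots at 24 h. The tables also hold the authors' log2 fold changes and p-values from DESeq2, which were not used, and the tables deposited again as a second file with equal values were not used.

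The tools were edgeR 4.0.16 (R 4.3.3), DESeq2 1.42.0 and limma 3.58.1. After TMM scaling and the filter of filterByExpr, the effect of zaxinone was tested with glmQLFit and glmQLFTest, which form edgeR's quasi-likelihood test, p-values were adjusted over all transcripts tested after Benjamini and Hochberg, and the threshold was 0.05, over 6 libraries and without zaxinone replicate 2. CPM values come from the TMM factors of the 6 libraries. Between 11261992 and 30830010 reads were counted per library. Differences between times were tested as interactions in one fit of the root libraries. Scripts were tested on simulated data. Replicate numbers were not treated as pairs. An exact permutation test of 3 against 3 libraries cannot reach 0.05, so the overlap of groups is stated.

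Named transcripts were every locus the study names, every transcript called over 6 libraries, the 10 largest increases and 10 largest decreases without replicate 2 (at least 1 CPM on average, no overlap), and the 8 farthest above and below and the 5 most abundant for replicate 2 and for the others. The loci Os07g26720, Os05g45410, Os06g03930, Os07g33780 and Os02g45160, the neighbouring pairs and the transcripts called at all 3 times were added after their values were seen. The members and lists were chosen with earlier results of these data known. Lists by product words, and chlorophyll-binding markers, were not used here, because no table paired loci with products. Alternatives were DESeq2, its size factors in edgeR, no filter, at least 10 counts in every library, the replicate number as a block, limma's voomWithQualityWeights, the root libraries in one fit, and each library left out in turn. For replicate 2, log2(CPM + 0.5), CPM without TMM and a gap of 2 were tried.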

Additional observations from a re-analysis of the deposited data

Results flagged for a closer look

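A difference between times was found for 6 transcripts in the test of the zaxinone effect at 24 h against an earlier time over 18 root libraries (edgeR). Against 2 h, the difference of log2 fold changes was -3.28 for Os05g45410, -3.04 for Os06g03930, -2.40 for Os07g33780 and -2.75 for Os12g41970. Against 6 h, it was 1.91 for Os02g45160 and -2.55 for Os07g03790. Without zaxinone replicate 2, the difference was -3.38 for Os05g45410, -2.75 for Os06g03930, -2.24 for Os07g33780 and -2.57 for Os12g41970 against 2 h, and 1.59 for Os02g45160 and -2.63 for Os07g03790 against 6 h, and all 6 were still called. Other settings lost calls. Against 6 h, both were lost with the replicate block and without mock replicate 1, 2 or 3, and 1 was left without zaxinone replicate 1. Against 2 h, 1 of the 4 stayed called with the block, and 3 without zaxinone replicate 1 or any one mock replicate.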

How the results depend on the processing

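The number of called transcripts depended on the libraries and on the tool. Over 6 libraries, edgeR called 1, DESeq2 421, voomWithQualityWeights 760 and the fit of 18 root libraries 505, a minimum of 10 counts in every library left 0, and leaving out a library gave 0 to 204. Without zaxinone replicate 2, edgeR called 204, DESeq2 797 and edgeR without a filter 317, and leaving out a further library gave 5 to 385. With the replicate number as a block, the counts were 0 over 6 libraries and 632 without replicate 2, and in the tests of 24 h against 2 h and 6 h they were 2 and 0. Deviations of same-numbered libraries correlated with r = 0.089, -0.0062 and 0.086, so the block was not taken as a pairing, and libraries 1 and 3 but not 2 correlated best with their own number. Leaving out a library of 24 h gave 3 to 146 transcripts for 24 h against 2 h and 0 to 102 for 24 h against 6 h, in both cases with the most without zaxinone replicate 3. With a gap of 2, 413 transcripts were outside in replicate 2, against 5225 with a gap of 1. Of the 30 named transcripts called without replicate 2, 2 stayed called under every alternative. The recomputed named transcripts left out, among others, sugar loci with overlapping groups without replicate 2, loci of the cytokinin biosynthesis mutants and transcripts named only for replicate 2. Most of the rest were selected on these libraries, so a kept direction was largely fixed in advance. Within this set, the direction was kept under every alternative tried but 1. This was Os10g26570 over 6 libraries without zaxinone replicate 3, whose log2 fold change ranged from -0.094 to 0.70 with a library left out. The causes were not tested. With 2 or 3 libraries in a group, the number of libraries limits what could be called, and transcripts of few reads, such as Os10g01390 or Os05g45100, were measured with wide counting error, most of all in zaxinone replicate 2, which had the fewest reads.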
